A study of Homo sapiens with 25 samples.

Results

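The responses of the lines BT20 and MCF to erlotinib, an inhibitor of the EGFR kinase, were compared over all genes as a difference of changes. The change from 0 min to 24 h in MCF was subtracted from the change over the same time in BT20. The comparison used 13 of the 25 arrays of the series. BT20 at 0 min was measured on 4 arrays, and BT20 at 24 h, MCF at 0 min and MCF at 24 h on 3 arrays each. All groups carry the label of 10 µM erlotinib, the 0 min groups standing for the time of addition, in medium with serum. The design has no 24 h arrays without drug, so drug and time in culture cannot be told apart. BT20 is a human breast cancer line with high EGFR; the other line is named only MCF in the labels, and no more is assumed of it. Of 19775 genes represented on the arrays, 12208 had a log2 value above 4 on at least 3 of the 13 arrays and were tested.

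EGFR is a receptor tyrosine kinase that signals through the RAS, RAF, MEK and ERK kinases and through PI3K and AKT. ERK activity keeps its own inhibitors transcribed, such as the phosphatase DUSP6 and the Sprouty and Spred proteins, and drives the ETS factors ETV4 and ETV5 and cyclin D1. AKT holds FOXO transcription factors out of the nucleus, and growth signalling supports MYC, ribosome production and entry into S phase.

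BT20 and MCF were placed by the labels in separate parts of the study. BT20 arrays had a 75th percentile of 7.73 to 7.81 and MCF arrays one of 7.27 to 7.32, so levels are given within a line and the lines are compared only through their changes. The EGFR mean at 0 min was 12.38 in BT20 and 3.52 in MCF, under the filter value. ESR1, the estrogen receptor, stood at 8.66 in BT20 and 12.47 in MCF, and TFF1, an estrogen-regulated luminal gene, at 3.11 and 13.49. The basal keratin KRT5 stood at 12.37 in BT20 and 1.89 in MCF. Not all basal markers were low in MCF, where CAV1 stood at 11.78 and CDH3 at 10.39. Of 8 blood, 6 fibroblast and 5 endothelial markers, 1, 2 and 2 passed the filter, with the endothelial cadherin CDH5 at 11.13 and the collagen COL1A1 at 9.11 in BT20 at 0 min. None of these 5 was called in either line or in the difference with all arrays, and their part in the results was not tested.

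Replicate 4 of BT20 at 0 min stood apart. Its values correlated at 0.968 to 0.972 with the other 0 min arrays, which correlated at 0.995 to 0.998 with each other. The MCF arrays differed among themselves within the groups, mostly along 1 axis. Replicate 1 at 0 min and replicate 3 at 24 h lay at one end, with scores of 0.545 and 0.495, and replicate 2 of either time at the other, with -0.494 and -0.458. The labels do not say what the axis is. Its scores are centred within each group, and it was computed from 4593 probe sets that were not tested and held 78.2% of the squared deviation of the MCF arrays from their group means. The labels do not state whether replicates were separate cultures; if they were not, p-values cover technical spread only, and the number of arrays limits the precision.

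A call means a limma p under 0.05 after Benjamini-Hochberg adjustment across the 12208 genes. In BT20 4250 genes (34.8%) were called, 2465 (20.2%) higher at 24 h and 1785 (14.6%) lower. In MCF 1 gene (0.00819%) was called, ETV5, which was lower, and 711 had an unadjusted p under 0.05. The difference between the lines was called for 1099 genes (9%), 697 (5.71%) of them with the BT20 change above the MCF change. The standard error of a typical gene was 0.15 in BT20, 0.25 in MCF and 0.33 for the difference. The axis was then added as a covariate, a choice made after the data were seen. Its scores are centred within groups, so the estimates cannot move, and the typical error in MCF became 0.15. A shift of the axis between 0 min and 24 h stays in the estimates, and the smaller error leaves it out. The p-values with the covariate can thus be too small. In that fit 191 genes (1.56%) were called in MCF, 63 higher and 128 lower, and 2285 (18.7%) in the difference. MCF calls given below other than ETV5 come from the covariate fit. Without BT20 0 min replicate 4 the difference was called for 1863 genes (15.3%), 9.64% of all genes upward and 5.62% downward, and the BT20 change for 6872 (56.3%). Leaving it out and adding the covariate gave 3921 called differences (32.1%).

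The genes were sorted by which changes were called. A gene is BT20 only where the BT20 change and the difference were called and the MCF change was not. This held for 1033 genes, 8.46% of those tested, with 651 higher and 382 lower at 24 h. The median change of the 651 was 1.60 in BT20 and -0.01 in MCF, in log2 units. Of the 651, 213 (32.7%) had both MCF means below 4, against 9.31% of all genes tested, and so did 118 (30.9%) of the 382 lower genes. A gene at background in MCF has no room to fall there. A further 3216 genes were called in BT20 with no call of the difference, and these are left unsorted. Their MCF change had the sign of the BT20 change in 1292 of 1814 higher genes and in 1132 of 1402 lower genes. ETV5 was the 1 gene called in both lines; no gene was MCF only or opposite, and 65 (0.532%) had the difference called alone. With the axis covariate the classes held 1942 BT20 only (15.9%), 55 MCF only (0.451%), 108 both in the same direction and 9 opposite (0.0737%). Among those 108 the difference was called for 51 (0.418%) and not for 57 (0.467%).

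**Figure D1:**
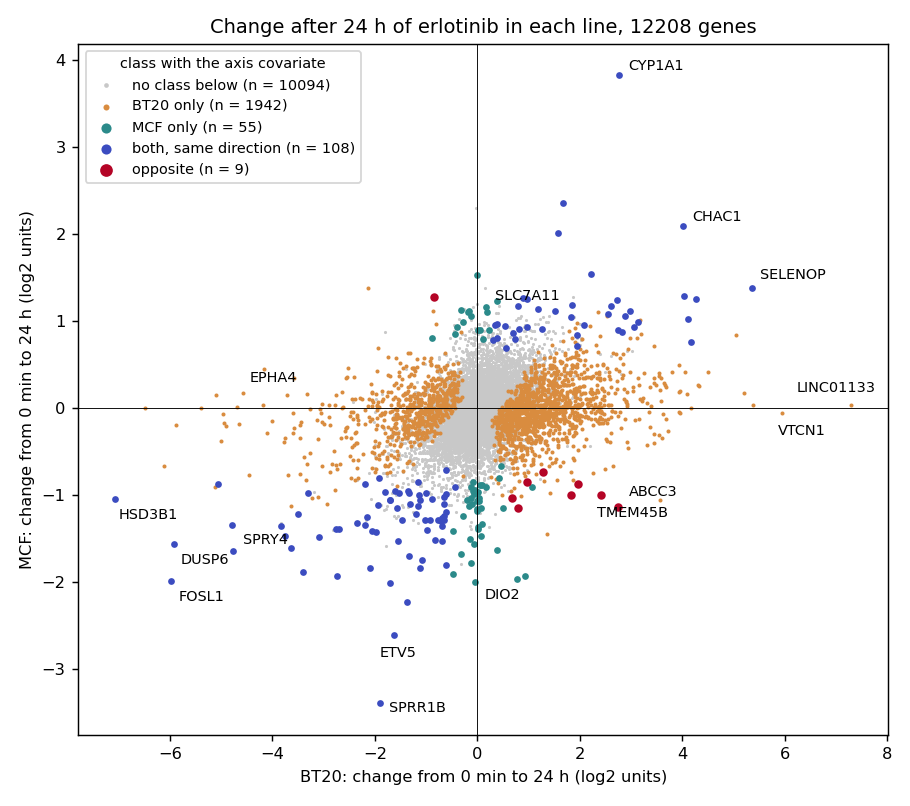
Each point is 1 of the 12208 genes tested, placed by its change from 0 min to 24 h in BT20 (x axis, log2 units) and in MCF (y axis, log2 units), and coloured by its class with the axis covariate. The BT20 only genes (n = 1942) spread along the x axis as far as LINC01133 at 7.30, while CYP1A1, at 3.82, is the highest point on the MCF axis.

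In an ERK output list of targets and feedback inhibitors, nearly all members fell in BT20 and a part of them fell in MCF. Like the lists below, it was chosen with earlier results of these data known. Of its 22 tested members, 21 fell in BT20, where 14.6% of all genes fell. In MCF 8 fell with the covariate, where 1.05% of all genes fell, and 19 of 22 changes were below 0. The median change was -2.08 in BT20 and -0.62 in MCF, and the median difference was -1.25, against 0.05 over all genes. A difference was called for 12 members with the larger fall in BT20, where 3.29% of all genes were called in that direction, and for ETV5 in the other direction. Without BT20 0 min replicate 4 these counts were 13 and 1.

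DUSP6, the phosphatase that turns off ERK, read 9.02, 8.94, 9.39 and 9.42 in BT20 at 0 min and 2.96, 3.03 and 3.81 at 24 h. In MCF it read 7.75, 8.14 and 7.53 at 0 min and 6.32, 6.53 and 5.90 at 24 h. The groups did not overlap in either line, but the 24 h values of BT20 were at background and those of MCF were not. The change was -5.93 ± 0.24 (SE) in BT20 and -1.56 ± 0.25 in MCF, and the difference was -4.37 ± 0.36 (adjusted p = 1.9e-05). SPRY4, a Sprouty inhibitor of RAS signalling, changed by -4.76 in BT20 and by -1.64 in MCF (difference -3.13 ± 0.25, adjusted p = 1.42e-05). Its MCF values lay between 2.02 and 3.93 throughout, below the filter value.

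FOSL1, an AP-1 subunit whose gene follows ERK activity, read 11.15, 11.15, 11.20 and 9.81 in BT20 at 0 min and 4.61, 5.07 and 4.88 at 24 h. In MCF it went from 5.30, 3.63 and 4.62 to 2.31, 2.29 and 2.98. Both lines were lower at 24 h on every array, and the BT20 0 min array that read 9.81 was replicate 4. All MCF values at 24 h, and that of 3.63 at 0 min, lay below the filter value of 4. A fall as large as that in BT20 could not be measured in MCF. The difference was -3.99 ± 0.60 (adjusted p = 0.0014). LIF, a cytokine of the interleukin-6 family, changed by -3.40 in BT20 and -1.88 in MCF, with a difference of -1.52 (adjusted p = 0.0474).

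EPHA4, an ephrin receptor, had the largest difference of the list. It read 9.11, 9.21, 9.38 and 8.43 in BT20 at 0 min and 4.23, 4.49 and 4.64 at 24 h. The MCF arrays read 10.45, 10.79 and 10.44 at 0 min and 10.71, 11.15 and 10.31 at 24 h. BT20 fell by 4.58 on the log2 scale, while the MCF groups overlapped at a high level (change 0.17 ± 0.26). The difference was -4.74 ± 0.36 (adjusted p = 1.08e-05), and the other 3 probe sets of the gene that passed the filter gave -3.97 to -3.50. CCND1, cyclin D1, was well above background in both lines and showed the same pattern at a smaller size. Its change was -1.14 ± 0.09 in BT20 and -0.10 ± 0.21 in MCF, a difference of -1.05 ± 0.22 (adjusted p = 0.00957). The ETS factor ETV4 fell in BT20 by 2.66, but lay at 2.18 to 2.74 on all MCF arrays, where a fall could not be measured.

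ETV5, a close relative of ETV4, read 12.35, 12.37, 12.50 and 12.84 in BT20 at 0 min and 10.77, 10.91 and 10.98 at 24 h. In MCF it read 9.88, 10.13 and 9.95 at 0 min and 7.32, 7.29 and 7.53 at 24 h. This probe set fell in both lines and further in MCF (-2.61 ± 0.16 against -1.62 ± 0.14), with a difference of 0.99 ± 0.21 (adjusted p = 0.0124). The 5 probe sets of the gene disagreed about the line that fell further. Of the other 4, one gave a difference of 0.34 and the rest -2.99, -2.0 and -2.08, and the mean of the probe sets gave -1.15 (adjusted p = 0.00143). The fall in each line had the same sign in all 5, from -3.63 to -1.62 in BT20 and from -2.61 to -0.42 in MCF.

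Of 13 receptors, ligands and regulators of the ErbB family, 2 (15.4%) rose and 5 (38.5%) fell in BT20, where 20.2% and 14.6% of all genes did. In MCF 1 (7.69%) was called with the covariate, against 1.56% of all genes. EGFR itself fell by 0.54 in BT20 (adjusted p = 0.00743); its difference of 0.43 was not called, and its 7 probe sets that passed the filter ran from -0.88 to 0.43. ERBB2 rose by 1.31 and ERBB3 by 0.75 in BT20; in MCF they changed by 0.36 and 0.21, and neither difference was called (0.95, interval -0.05 to 1.94, and 0.54, interval 0.17 to 0.91). These are 95% intervals without adjustment over genes. The ERBB3 difference was called with the covariate (adjusted p = 0.0274) and without BT20 0 min replicate 4 (0.55, adjusted p = 0.0469). HBEGF, an EGFR ligand, read 7.44, 7.45, 7.51 and 6.98 in BT20 at 0 min and 3.66, 3.38 and 3.93 at 24 h. Its MCF groups overlapped near the filter value, at 4.45, 4.86 and 5.10 before and 3.63, 4.51 and 3.96 after. The difference was -2.92 ± 0.35 (adjusted p = 0.000268). The ligand EREG fell by 2.45 in BT20 and was near background in MCF. BTC, betacellulin, had the opposite order: its change was 0.00 in BT20 and -1.07 in MCF, where it was called with the covariate (adjusted p = 0.0457), and its difference of 1.07 was called with the covariate (adjusted p = 0.0489) or without BT20 0 min replicate 4, at 1.31 (adjusted p = 0.0112), but not otherwise (adjusted p = 0.12).

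Immediate early genes, which respond to growth factors within minutes, gave both directions in BT20. None was called in MCF, where 1.56% of all genes were with the covariate. Of 19 tested, 4 rose, a share near the 20.2% of all genes, and 6 fell, where 14.6% of all genes did. The difference was called for JUN, KLF6 and CSRNP1, each lower in BT20, where 3.29% of all genes were called in that direction. EGR1 was called in neither line, and its difference of -0.87 had an interval from -1.94 to 0.20. Without BT20 0 min replicate 4, which read 13.10 against 11.85 to 12.07 on the others, its BT20 change was -0.52 and called (adjusted p = 0.00266).

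The difference for MYC was called in 1 of 4 fits. It read 7.77, 8.67, 7.94 and 11.19 in BT20 at 0 min and 6.15, 6.91 and 6.36 at 24 h, so that replicate 4 stood far above the other 0 min arrays. The MCF arrays read 8.84, 10.93 and 9.45 before and 10.09, 10.54 and 8.81 after. The difference was -2.49 ± 1.13 (adjusted p = 0.239), and -1.73 without that replicate (adjusted p = 0.194). With the covariate it was not called (adjusted p = 0.105), and without the replicate and with the covariate it was (adjusted p = 0.00548). Among 21 tested MYC targets and genes of ribosome biogenesis, 17 fell in BT20 and none rose, where 14.6% and 20.2% of all genes did. No member was called in MCF, where 1.56% of all genes were with the covariate. The median change was -0.82 in BT20 and -0.11 in MCF. A difference was called downward for 3 members, where 3.29% of all genes were called in that direction. With the covariate it was called for 11, where 6.5% of all genes were. ODC1, the first enzyme of polyamine synthesis, read 10.84, 10.78, 10.64 and 10.79 in BT20 at 0 min and 9.41, 9.55 and 9.57 at 24 h. In MCF it read 8.61, 8.74 and 8.74 before and 8.69, 8.53 and 8.40 after, with overlapping groups. The difference was -1.09 ± 0.17 (adjusted p = 0.00165). The RNA polymerase I subunit POLR1B (-0.81) and the ribosome assembly factor WDR12 (-1.13) were called as well.

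Genes of DNA replication and the G1 to S step fell in BT20, and few of them were called in MCF or in the difference. Of 36 tested members, 26 fell in BT20 and none rose, where 14.6% and 20.2% of all genes did. In MCF 35 of 36 changes were below 0. The median change was -0.55 in BT20 and -0.43 in MCF. In MCF 1 member, MCM10, was called lower with the covariate, where 1.05% of all genes were. The 0 min and 24 h arrays of 17 members did not overlap there, all lower at 24 h, where 6.34% of all genes were lower without overlap. No difference was called with all 13 arrays, with the covariate, or without BT20 0 min replicate 4. With the covariate and without that replicate 1 was called downward, GINS3 (adjusted p = 0.0307), and 1 upward, TYMS, the thymidylate synthase (adjusted p = 0.0477). The member differences ran from -0.64 to 0.33, with a typical error of 0.27. The 95% interval held 0 for 35 of 36, the exception being GINS3 (-0.78 to -0.08). Differences inside these intervals are not detectable with these arrays; for CDC6 the interval was -1.03 to 0.19 and for MCM5, the least certain, -3.16 to 2.72.

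CDC6, which loads the MCM helicase onto DNA, read 9.69, 9.54, 9.86 and 10.34 in BT20 at 0 min and 8.62, 8.45 and 8.72 at 24 h. The MCF arrays read 9.59, 9.63 and 9.75 before and 9.03, 8.55 and 8.86 after. Every 24 h array was below every 0 min array in both lines. The changes were -1.26 ± 0.20 and -0.84 ± 0.18, and the difference was -0.42 ± 0.28 (adjusted p = 0.476), with 0.27 in the gene's other probe set. MCM6, a subunit of that helicase, changed by -0.49 in BT20 and -0.34 in MCF.

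E2F factors drive many of these genes through sites in their promoters. The letters TTTGGCGC and TTTCGCGC were searched on both strands in the window from 250 bases before to 50 after each start, from RefSeq on GRCh38.p14. At least 1 match was present in 11 of the 31 members with a promoter in the table (35.5%), against 1.99% of the 9985 tested genes with one and 1.18% of all 27305. A match is a description of letters and not of binding. A pair of the promoters is shown because the 24 h arrays of both genes lay below the 0 min arrays in both lines, with matches in capitals; CDC6 lies at chr17:40287629-40287928 on the plus strand and MCM6 at chr2:135876394-135876693 on the minus strand. The 4 matches of MCM6 overlap in pairs, so each run of capitals holds 2.
CDC6: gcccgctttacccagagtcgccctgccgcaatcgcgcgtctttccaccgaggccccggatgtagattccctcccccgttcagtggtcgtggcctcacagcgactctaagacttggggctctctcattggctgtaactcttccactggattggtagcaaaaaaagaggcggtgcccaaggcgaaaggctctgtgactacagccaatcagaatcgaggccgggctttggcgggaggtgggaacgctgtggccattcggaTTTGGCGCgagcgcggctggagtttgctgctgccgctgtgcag
MCM6: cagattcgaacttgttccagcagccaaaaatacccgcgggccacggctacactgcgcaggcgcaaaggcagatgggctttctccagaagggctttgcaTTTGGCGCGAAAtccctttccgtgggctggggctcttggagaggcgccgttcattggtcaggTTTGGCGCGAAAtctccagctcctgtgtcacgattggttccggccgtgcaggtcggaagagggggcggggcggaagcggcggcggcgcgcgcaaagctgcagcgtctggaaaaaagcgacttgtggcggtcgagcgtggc

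Genes that respond to amino acid shortage and stress of the endoplasmic reticulum rose in BT20, and some of them rose in MCF. The factor ATF4 and its partners drive many of them. Of 25 tested members, 17 rose in BT20 and none fell, where 20.2% of all genes rose. In MCF all 25 changes were above 0, 6 members rose with the covariate, where 0.516% of all genes rose, and 15 were higher without overlap, where 5.33% of all genes were. The median change was 0.94 in BT20 and 0.63 in MCF. Differences were called for 7 members, 6 of them with the larger rise in BT20, where 5.71% of all genes were called in that direction.

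CHAC1, an enzyme that degrades glutathione, read 4.26, 3.71, 4.29 and 4.21 in BT20 at 0 min and 8.17, 8.18 and 8.02 at 24 h. In MCF it read 4.65, 3.22 and 3.28 before and 5.36, 5.26 and 6.80 after. The groups were apart in both lines, with a wider spread in MCF. The changes were 4.01 ± 0.16 and 2.09 ± 0.57, and the difference of 1.91 ± 0.59 was not called (adjusted p = 0.069); with the covariate it was (adjusted p = 0.00131). The stress protein NUPR1 rose by 4.11 in BT20, from a mean above background, and by 1.02 in MCF, where it read 3.60, 3.74 and 3.83 before and 4.77, 4.87 and 4.58 after. Its difference was 3.09 ± 0.24 (adjusted p = 1.27e-05). DDIT4, an inhibitor of mTORC1, was already at 12.09, 12.74 and 12.62 in MCF at 0 min and reached 13.20, 13.53 and 13.01. In BT20 it went from 7.97, 7.86, 7.91 and 8.86 to 12.30, 12.34 and 12.32, so that the difference was 3.41 ± 0.36 (adjusted p = 0.000128). The mitochondrial folate enzyme ALDH1L2 rose in BT20 from 3.15 to 3.87 at 0 min, below the filter value, to 8.29, 8.41 and 8.54, and stayed below 4 on every MCF array. Its fitted difference of 4.20 ± 0.28 (adjusted p = 3.91e-06) thus starts from background values in both lines.

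SLC7A11, the cystine transporter, was the member with the larger rise in MCF. It read 9.54, 9.40 and 9.37 in MCF at 0 min and 10.58, 10.79 and 10.42 at 24 h, against 11.82, 11.75, 11.79 and 11.51 and then 11.82, 11.94 and 11.89 in BT20. The MCF groups were apart and the BT20 groups overlapped. The difference was -1.0 ± 0.19 (adjusted p = 0.0057), and the other 2 probe sets gave -1.16 and -0.96. Other members had no called difference: PSAT1, an enzyme of serine synthesis, changed by 0.94 and 0.95, with an interval of the difference from -0.61 to 0.59, and ATF4 by 0.43 and 0.63, with an interval from -0.64 to 0.25.

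The response element read by ATF4 with C/EBP partners was searched as TGATGCAA on both strands in the same windows. It was present in 2 of the 21 members with a promoter (9.52%), CHAC1 and HERPUD1, against 0.471% of tested genes and 0.923% of all promoters. These promoters are shown because both genes were higher in both lines without overlap; the capitals are the match, read on the other strand. HERPUD1, a protein of the degradation pathway of the endoplasmic reticulum, changed by 1.06 in BT20 and 0.70 in MCF. CHAC1 lies at chr15:40953221-40953520 and HERPUD1 at chr16:56931892-56932191, both on the plus strand.
CHAC1: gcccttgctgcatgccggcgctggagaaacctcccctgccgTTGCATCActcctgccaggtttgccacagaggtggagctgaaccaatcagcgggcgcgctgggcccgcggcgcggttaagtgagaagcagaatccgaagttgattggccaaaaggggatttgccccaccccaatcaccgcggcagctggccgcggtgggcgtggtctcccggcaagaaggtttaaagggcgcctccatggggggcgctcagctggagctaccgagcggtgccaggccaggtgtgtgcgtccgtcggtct
HERPUD1: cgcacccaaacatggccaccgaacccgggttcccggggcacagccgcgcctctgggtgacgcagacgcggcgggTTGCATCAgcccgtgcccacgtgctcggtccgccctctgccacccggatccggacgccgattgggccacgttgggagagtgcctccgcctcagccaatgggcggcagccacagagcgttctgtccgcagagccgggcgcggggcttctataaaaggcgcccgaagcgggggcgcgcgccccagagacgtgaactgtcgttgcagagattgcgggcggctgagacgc

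**Figure D2:**
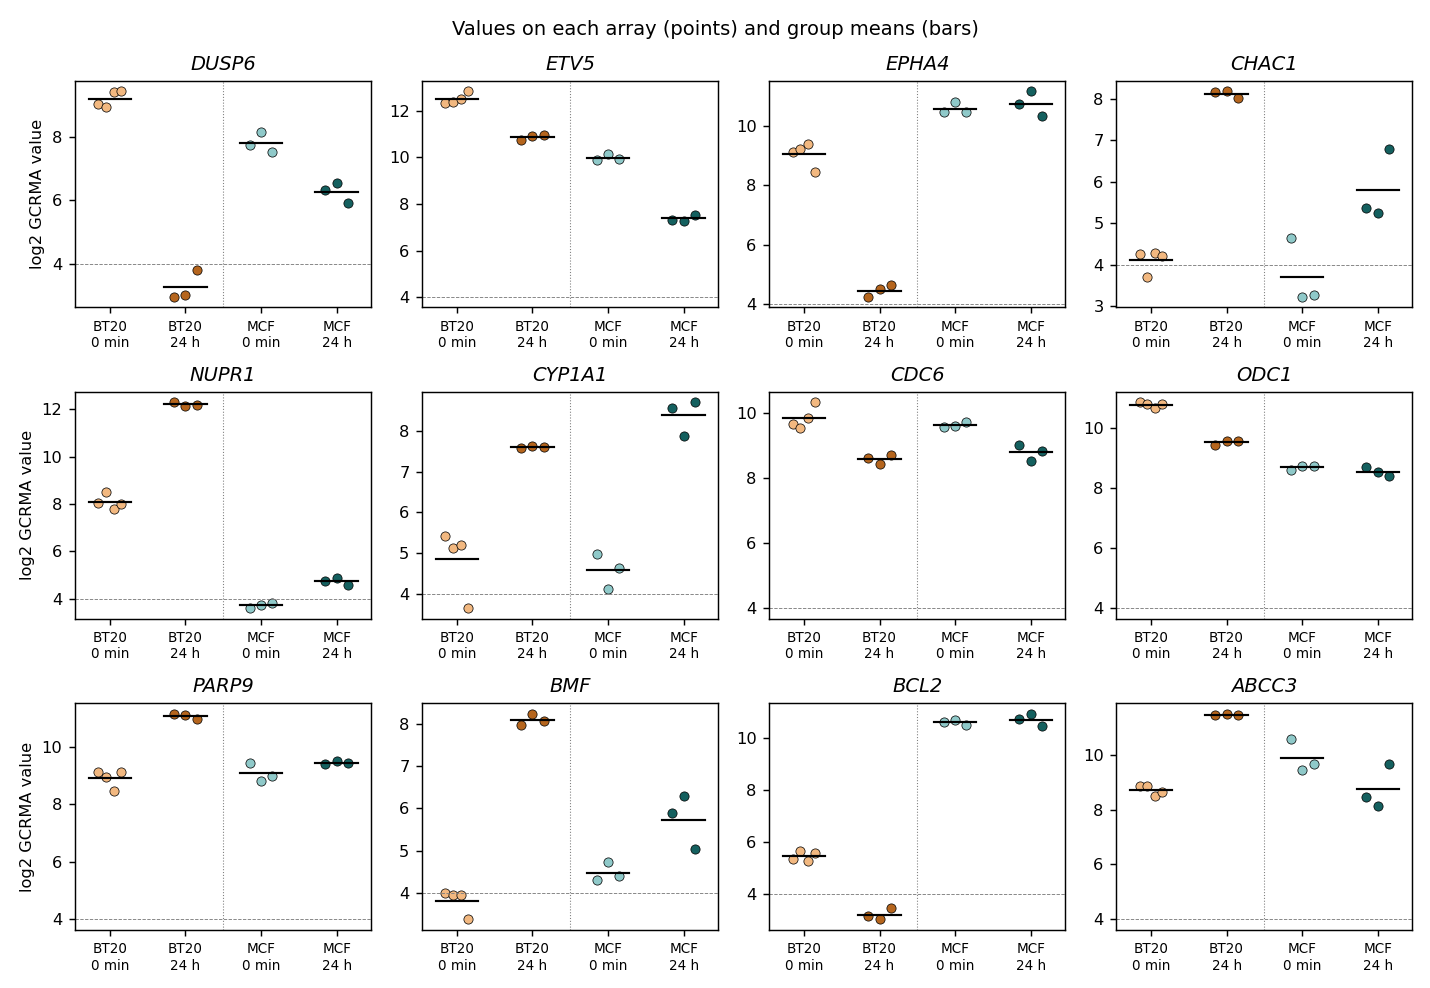
Log2 GCRMA values (y axis) of 12 genes on each of the 13 arrays, with points for arrays, bars for group means and a dashed line at the filter value of 4. EPHA4 and BCL2 drop in BT20 and stay near their starting level in MCF, CDC6 drops and CHAC1 climbs in both, and ABCC3 moves in opposite directions.

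Beyond these lists, several genes moved in the same direction in both lines. CYP1A1, the xenobiotic-metabolising enzyme induced by the aryl hydrocarbon receptor, read 4.98, 4.12 and 4.63 in MCF at 0 min and 8.58, 7.89 and 8.71 at 24 h. In BT20 it read 5.43, 5.12, 5.20 and 3.64 before and 7.59, 7.64 and 7.62 after. All 24 h arrays were above all 0 min arrays in both lines. The change was 3.82 ± 0.32 in MCF (adjusted p = 0.0681, and 0.00159 with the covariate) and 2.77 ± 0.40 in BT20. Its difference of -1.05 was not called (interval -2.28 to 0.18), but was -1.45 and called without BT20 0 min replicate 4 (adjusted p = 0.0163), the array that read 3.64. The retinal reductase DHRS3 rose by 1.57 in BT20 and 2.01 in MCF, and CPS1, the mitochondrial carbamoyl phosphate synthetase, by 2.21 and 1.54; neither difference was called with all arrays. That of CPS1 was called without replicate 4 (1.07, adjusted p = 0.0124).

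Among shared falls, NT5E, the ecto-enzyme that makes adenosine, read 10.51, 10.36, 10.67 and 10.66 in BT20 at 0 min and 8.74, 8.96 and 8.82 at 24 h. In MCF it went from 7.77, 8.15 and 7.78 to 6.19, 5.71 and 5.77. Both lines fell, by 1.71 and 2.01 on the log2 scale, and the difference was 0.30 (interval -0.21 to 0.81); the other 3 probe sets gave -0.57 to 0.41. SPRR1B, a cornified envelope protein, went from 7.27, 6.03 and 7.29 to 3.31, 2.79 and 4.33 in MCF, the largest fall there, while in BT20 it lay below 4 throughout. Genes called in both lines with the larger rise in BT20 included SELENOP, a secreted selenium carrier (5.37 and 1.38), and TSC22D3, a glucocorticoid-induced leucine zipper protein (4.03 and 1.29). Their differences were 3.98 ± 0.40 (adjusted p = 7.19e-05) and 2.74 ± 0.49 (adjusted p = 0.00404).

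The BT20 only class held the largest changes of the comparison. LINC01133, a long noncoding RNA, read 2.24, 2.34, 2.42 and 2.85 in BT20 at 0 min and 9.63, 9.88 and 9.77 at 24 h, and lay between 1.59 and 1.88 on all MCF arrays. The BT20 change from background was 7.30 and the difference 7.26 ± 0.23 (adjusted p = 1.44e-08). VTCN1, the immune checkpoint ligand B7-H4, rose in BT20 from 2.04, 2.48, 2.21 and 2.56 to 8.36, 8.38 and 8.07. In MCF it was present throughout, at 9.45, 8.63 and 8.92 before and 9.04, 8.41 and 9.35 after. The groups were far apart in BT20 and overlapped in MCF, and the difference was 6.01 ± 0.36 (adjusted p = 1.88e-06). HCAR3, a hydroxycarboxylic acid receptor, rose by 5.39 in BT20 and was at background in MCF. ID1, an inhibitor of basic helix-loop-helix factors, rose by 4.10 in BT20. Its MCF values varied widely within a group (6.05, 9.10 and 7.76 before, 8.01, 8.47 and 6.89 after), and its difference was 3.94 ± 0.91 (adjusted p = 0.0178).

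Several of the largest falls in BT20 were of genes near background in MCF. HSD3B1, an enzyme of steroid synthesis, read 11.11, 11.04, 10.95 and 11.29 in BT20 at 0 min and 4.14, 3.76 and 4.19 at 24 h. It lay between 1.46 and 2.94 in MCF, so its MCF change of -1.04 lies within background values. The receptor tyrosine kinase AXL (-5.07), the cytokine receptor IL7R (-5.01) and the adhesion protein TNS4 (-5.12) fell in BT20 and were below 4 on every MCF array. Among the 8394 genes with a mean of at least 6 in both lines, a subset added after the data were seen, the difference was called for 463 and 443 were BT20 only.

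Genes linked to FOXO factors, the targets that AKT signalling holds down, rose in BT20 more often than all genes did. Of 22 tested, 12 (54.5%) rose and 2 (9.09%) fell there, where 20.2% and 14.6% of all genes did. In MCF 1 rose (TSC22D3) and 1 fell (TRIB2) with the covariate, where 0.516% and 1.05% of all genes did. The median change was 0.94 in BT20 and 0.18 in MCF, and the difference was called for 7 upward and 1 downward, where 5.71% and 3.29% of all genes were; without BT20 0 min replicate 4 it was called for 10 and 1. YPEL2, a yippee-like protein, read 5.22, 4.61, 4.51 and 6.06 in BT20 at 0 min and 9.63, 9.58 and 9.61 at 24 h. The MCF arrays read 10.75, 10.96 and 10.99 before and 11.39, 11.42 and 11.17 after. The groups were apart in both lines, by a small amount in MCF. The difference was 4.08 ± 0.44 (adjusted p = 0.000129). BCL6, a transcriptional repressor, was expressed in both lines and changed by 1.39 and 0.06, a difference of 1.33 ± 0.24 (adjusted p = 0.00381).

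Interferon-stimulated genes rose in BT20 and gave no call in MCF, where 1.56% of all genes were called with the covariate. Of 36 tested, 23 rose and 3 fell in BT20, where 20.2% and 14.6% of all genes did, with a median change of 0.81. The MCF median was -0.06, with 22 changes below 0. The difference was called for 8 upward and 1 downward (IFIT1), where 5.71% and 3.29% of all genes were, and for 16 and 1 with the covariate, where 12.2% of all genes were called upward. PARP9 is an interferon-induced member of the PARP family. It read 9.11, 8.94, 8.46 and 9.11 in BT20 at 0 min and 11.15, 11.11 and 10.95 at 24 h. In MCF it read 9.45, 8.82 and 8.98 before and 9.39, 9.49 and 9.45 after. The BT20 groups were apart, the MCF groups overlapped, and the difference was 1.80 ± 0.27 (adjusted p = 0.00144). IRF9, a subunit of the interferon-activated factor ISGF3, went from 6.14, 6.11, 5.69 and 6.31 to 7.72, 7.62 and 7.51 in BT20. In MCF it stayed between 9.24 and 9.52 (difference 1.53 ± 0.22, adjusted p = 0.00105). The immunoproteasome subunit PSMB9 rose by 1.86 in BT20 and changed by -0.83 in MCF, where its 0 min arrays read 5.43, 4.38 and 5.32 (difference 2.70 ± 0.45, adjusted p = 0.00247). The rise did not take in every member: ISG15, a ubiquitin-like modifier, changed by 0.33 and 0.14, and USP18, the protease that removes it, fell in BT20 by 1.05.

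Genes of cell death moved in both directions. Of 27 tested, 7 rose and 5 fell in BT20, where 20.2% and 14.6% of all genes did. In MCF 1 rose with the covariate, where 0.516% of all genes did. The difference was called for 2 upward and 2 downward, where 5.71% and 3.29% of all genes were. With the covariate it was called for 4 and 3, where 12.2% and 6.5% of all genes were. BMF, a BH3-only protein that opposes BCL2, read 4.00, 3.95, 3.95 and 3.37 in BT20 at 0 min and 7.96, 8.24 and 8.06 at 24 h. In MCF it went from 4.30, 4.74 and 4.39 to 5.88, 6.29 and 5.03. It was higher at 24 h on every array of both lines, by 4.27 and 1.25, and the difference was 3.02 ± 0.39 (adjusted p = 0.000481). BCL2 itself went from 5.33, 5.63, 5.26 and 5.55 to 3.13, 3.01 and 3.44 in BT20. In MCF it stayed at 10.60, 10.69 and 10.48 before and 10.71, 10.93 and 10.44 after, with overlapping groups. The difference was -2.35 ± 0.24 (adjusted p = 7.19e-05). CASP10, an initiator caspase, rose by 2.46 in BT20 and was at background in MCF (difference 2.62 ± 0.46, adjusted p = 0.00363). TNFRSF10A, the TRAIL receptor DR4, changed by -1.77 in BT20 and -0.58 in MCF (difference -1.19 ± 0.25, adjusted p = 0.0105).

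The apoptosis genes CASP8, CFLAR and BID showed no called difference without the covariate. The initiator caspase CASP8 read 9.0, 8.53, 8.94 and 10.11 in BT20 at 0 min and 9.09, 8.96 and 9.24 at 24 h, replicate 4 being the high array, and the difference was -0.28 (interval -1.39 to 0.82). The caspase-8 inhibitor CFLAR differed by -0.09 (interval -0.53 to 0.35), and its other probe sets that passed the filter gave 0 to 1. BID, which caspase-8 cleaves, read 10.08, 8.04 and 9.19 in MCF at 0 min and 8.16, 7.41 and 9.41 at 24 h, and its difference of 0.50 was called with the covariate (adjusted p = 0.0476). BCL2L11, the BH3-only protein BIM, rose by 0.96 in BT20 and changed by 0.04 in MCF. Its difference of 0.92 exceeded those of its other probe sets that passed the filter (-0.18 to 0.50). The 0.92 was not called (adjusted p = 0.106), but was 0.70 and called without BT20 0 min replicate 4 (adjusted p = 0.0317). The cell cycle inhibitor CDKN1A was called in neither line with all arrays, with a difference of -0.52 (adjusted p = 0.675), and of -0.90 without that replicate (adjusted p = 0.0332).

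**Figure D3:**
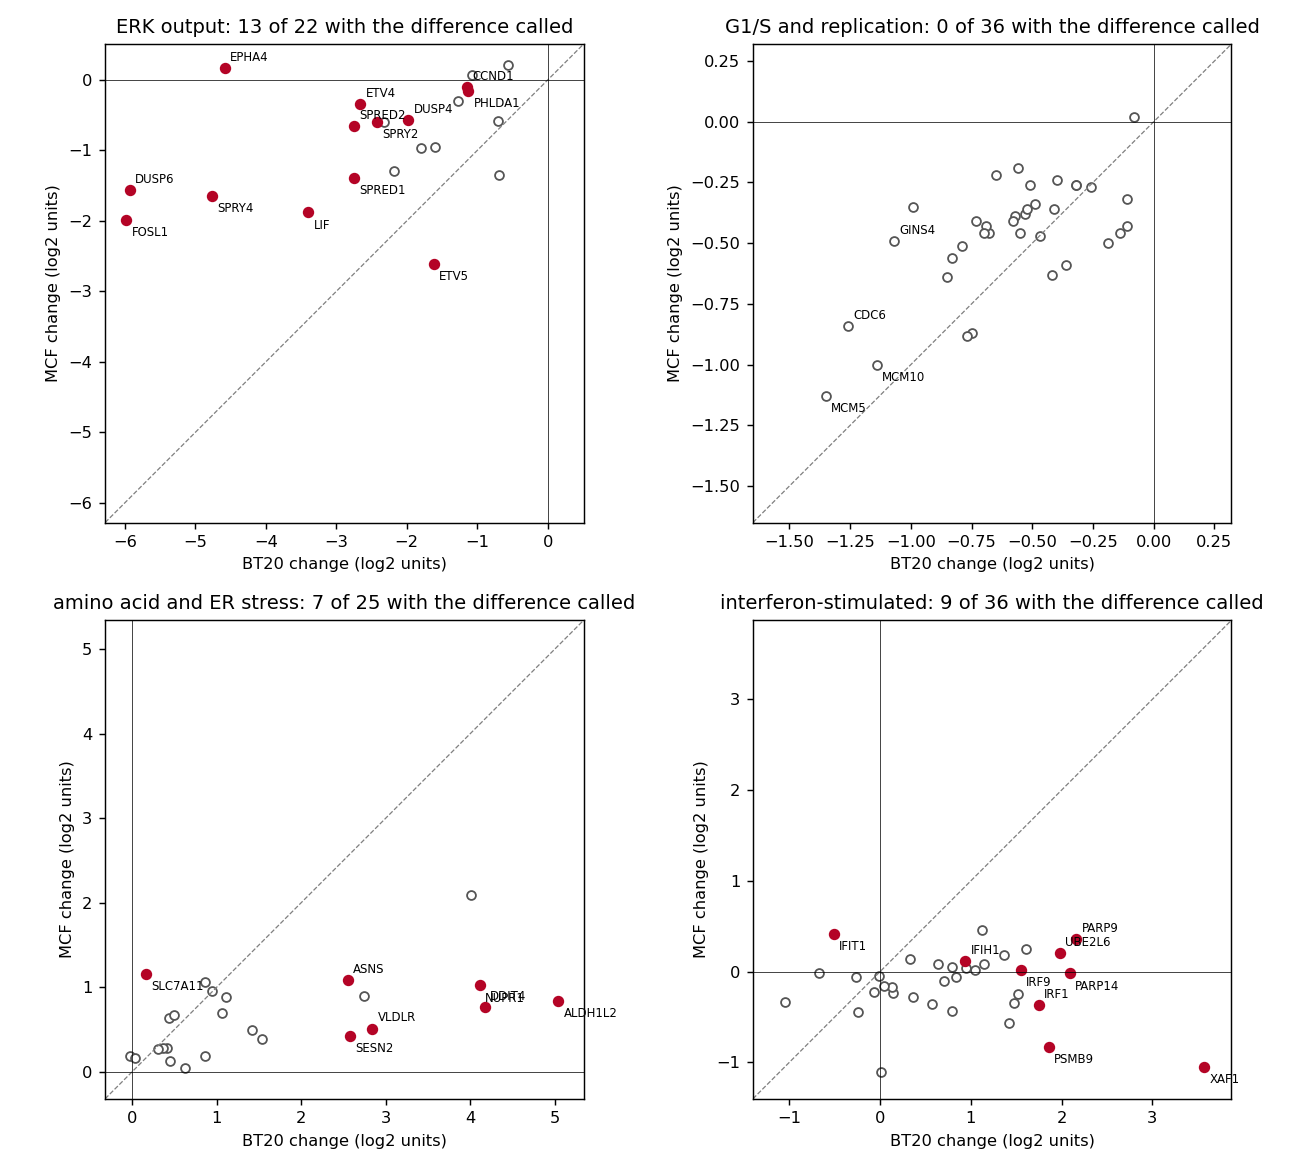
Each panel places the tested members of 1 list by their change in BT20 (x axis) and in MCF (y axis), both in log2 units. Filled points have a called difference and the dashed line marks equal change. ERK output genes lie mostly above the line (13 of 22 called), no G1/S and replication gene has one (0 of 36), and interferon-stimulated genes spread along the BT20 axis (9 of 36).

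MCF only genes numbered 55 with the covariate and 0 in the same fits without it. Without the covariate, 1 fit to all 25 arrays gave 91 and 1 fit to the 13 arrays gave 36. DIO2, the deiodinase that activates thyroid hormone, read 9.18, 8.71 and 8.98 in MCF at 0 min and 6.83, 6.92 and 7.11 at 24 h. In BT20 it read 10.78, 10.81, 10.73 and 10.78 before and 10.67, 10.70 and 10.85 after. The MCF groups were apart and the BT20 groups overlapped, with changes of -2.0 ± 0.19 and -0.04 ± 0.09. The MCF change was called with the covariate (adjusted p = 0.00832) and was just outside the threshold without it (adjusted p = 0.0681). The difference of 1.97 ± 0.20 was called either way (adjusted p = 6.87e-05). The probe sets of DIO2 disagreed: 1 other gave 1.75, and 3 of lower level gave -0.21 to -1.03.

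The matrix protein EFEMP1 fell in MCF from 11.38, 10.63 and 11.02 to 9.31, 9.10 and 9.62 and was at background in BT20, where a change of -0.38 was called without replicate 4 (adjusted p = 0.014). S100A8, a calcium-binding alarmin, fell in MCF by 1.96 with wide spread between arrays (9.11, 7.61 and 8.24 before, 5.94, 5.79 and 7.35 after). In BT20 it read 11.91, 11.85, 11.83 and 10.72 at 0 min and 12.36, 12.34 and 12.36 at 24 h, without overlap, and its difference was 2.73 ± 0.64 (adjusted p = 0.0185). Without replicate 4, the array at 10.72, the BT20 rise of 0.49 was called (adjusted p = 0.000716), and S100A8 was then opposite. SHH, the hedgehog ligand, rose in MCF from 8.37, 8.52 and 8.80 to 9.65, 9.56 and 9.63 and was at background in BT20 (difference -1.19 ± 0.19, adjusted p = 0.00219). SOCS2, an inhibitor of cytokine signalling expressed in both lines, rose in MCF from 8.44, 7.83 and 8.10 to 8.99, 9.42 and 9.35. In BT20 it read 10.12, 10.03, 10.30 and 9.47 before and 9.69, 9.60 and 9.68 after, and replicate 4 (9.47) alone made the groups overlap. Without it the BT20 change was called (-0.49, adjusted p = 0.00257) and SOCS2 was opposite. With all arrays the difference was -1.45 ± 0.30 (adjusted p = 0.0103).

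Opposite changes were called for 9 genes with the covariate, 8 of them higher in BT20 and lower in MCF. ABCC3, an exporter of organic anions, read 8.87, 8.84, 8.49 and 8.64 in BT20 at 0 min and 11.43, 11.49 and 11.45 at 24 h. The MCF arrays read 10.55, 9.43 and 9.65 before and 8.45, 8.12 and 9.66 after, so that 1 of the 24 h arrays lay within the 0 min range. The changes were 2.75 ± 0.12 and -1.13 ± 0.49. In MCF the change was called with the covariate (adjusted p = 0.0462) and not in the same fit without it (adjusted p = 0.888). The difference was 3.88 ± 0.50 (adjusted p = 0.000433). TNFAIP2, a cytokine-induced protein, was apart on all arrays of both lines. It went from 11.14, 11.18, 10.87 and 11.18 to 12.02, 12.08 and 12.09 in BT20 and from 7.19, 7.22 and 7.32 to 6.45, 6.27 and 6.46 in MCF (difference 1.82 ± 0.17, adjusted p = 5.39e-05). PGM1, phosphoglucomutase, was likewise apart in both lines, with changes of 0.79 and -1.15 (difference 1.94 ± 0.31, adjusted p = 0.00191), and so was the membrane protein TMEM45B, with 2.41 and -1.0 (difference 3.42 ± 0.38, adjusted p = 0.000164). The kynurenine enzyme KMO (1.83 and -1.0) and the tensin TNS3 (0.68 and -1.03) had overlapping MCF arrays. LINC01293 was the 1 gene lower in BT20, within background values there, and higher in MCF. In all, 84 genes (0.688%) were higher in BT20 and lower in MCF without overlap in either line, 45 (0.369%) the reverse, and 327 (2.68%) and 325 (2.66%) moved up or down together. In BT20 alone 26.3% of genes were higher and 20% lower without overlap.

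In the other lists the called differences are read against 5.71% of all genes upward and 3.29% downward, or 12.2% and 6.5% with the covariate. Changes in BT20 are read against 20.2% of all genes risen and 14.6% fallen. Cholesterol synthesis genes rose in BT20 (9 of 18, 1 fell), with the difference called upward for 2 and with the covariate for 4, among them IDI1 (0.79) and SREBF2, the factor that drives the pathway (1.72 ± 0.39, adjusted p = 0.0163). Mitosis genes gave 6 rises of 31 in BT20 (19.4% against 20.2% of all genes) and no called difference. With the covariate it was called for the centromeric histone CENPA (0.83, adjusted p = 0.0331; 0.93 without BT20 0 min replicate 4, adjusted p = 0.0219) and the proliferation marker MKI67 (-0.57, adjusted p = 0.0411). The 4 probe sets of MKI67 disagreed in sign, at -0.57, -0.30, 0.42 and 0.52. Of 22 lysosome and autophagy genes 6 (27.3%) rose in BT20, with the difference called for the autophagy protein WIPI1 (1.02 ± 0.22, adjusted p = 0.0126). Estrogen receptor targets moved in both directions in BT20, where 3 of 23 (13%) rose and 5 (21.7%) fell. The difference was called for PDZK1 (1.29), RET (2.49) and IRS1 (-2.56), and with the covariate for 2 upward and 5 downward. The other RET probe sets that passed the filter gave only 0.12 and 0.35. ESR1 differed by 0.26 (interval -0.13 to 0.65), with -0.73 in the other probe set that passed the filter, and TFF1, near background in BT20, by -1.11 (adjusted p = 0.105), called with the covariate (adjusted p = 0.00953) and, at -1.24, without BT20 0 min replicate 4 (adjusted p = 0.0492). NF-kB targets were called apart for 2 of 10, NFKBIA (1.87) and TNFAIP2, p53 targets for TP53INP1 (3.14) and AEN (-1.84), and genes of glycolysis and hypoxia for HK2 (-1.09) and ANKRD37 (-1.17); the last list gave 3 upward and 3 downward with the covariate. Among 18 luminal markers MUC1 was called (1.35). Among 9 basal markers none was called, and with the covariate the adhesion protein CDH3 (0.73, adjusted p = 0.0438) and the caveolar protein CAV1 (-0.61, adjusted p = 0.0228) were.

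Ribosomal protein genes gave no call in either line and respiratory chain genes 1 rise in BT20; no difference was called in either list with all arrays. Their median changes were -0.04 and 0.09 in BT20 and 0.04 and 0.00 in MCF. All 16 and all 23 intervals of the difference held 0.

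**Figure D4:**
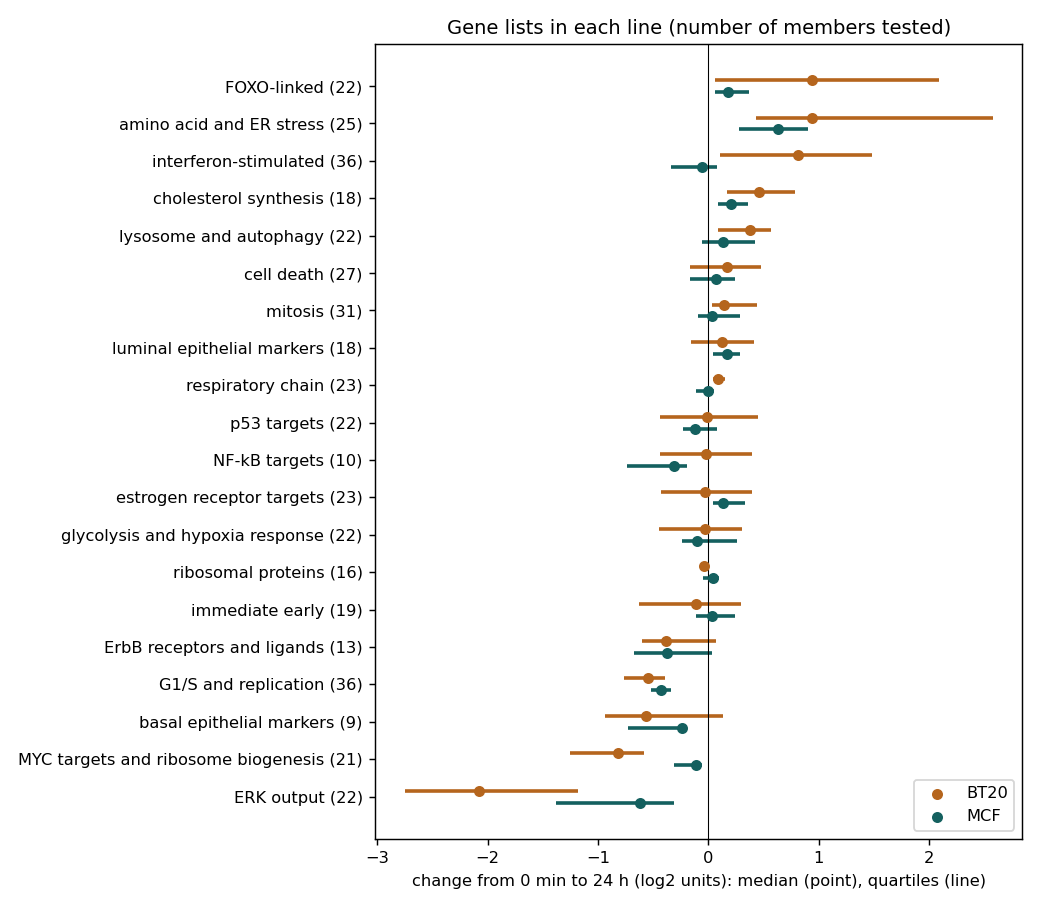
Median (point) and quartiles (line) of the change from 0 min to 24 h over the tested members of each list (x axis, log2 units), with BT20 and MCF side by side; the number of members tested is in brackets. The medians are -0.55 and -0.43 for G1/S and replication, and further apart for ERK output (-2.08 and -0.62) and interferon-stimulated genes (0.81 and -0.06).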

How the data were processed

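RNA of the 25 samples was measured on Affymetrix arrays, and 13 of these arrays were compared here. The authors deposited log2 values made with R 2.11.1 and GCRMA 2.20.0, per the submitters' processing notes; the order of those steps is not given in the sources used here. Of 54613 probe sets, 41091 have 1 gene symbol, 1801 several and 11721 none in the platform annotation. For each of 19775 genes the single-symbol probe set of highest mean, taken over all 25 arrays, was used. A gene entered the tests if 3 or more of the 13 arrays exceeded a log2 value of 4.

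Tests used limma 3.58.1 in R 4.3.3, with Benjamini-Hochberg adjustment. The difference came from 1 fit to 4 groups (9 residual degrees of freedom), and each line's change from its own fit (5 in BT20, 4 in MCF, 3 with the axis covariate). Replicate numbers were checked for pairing and did not pair the samples. On simulated data of 12208 genes with 200 changed, differences of 2 log2 units were recovered for 69.3% and of 1 unit for 20%. In MCF 44% of changes of 2 units and 0% of 1 unit were recovered, against 78.7% and 49.3% with the covariate. The simulated MCF arrays carried the axis scores that the covariate fit removes, with no shift of the axis between groups. The better recovery with the covariate was thus built in. Of the called differences 1 of 87 was false without the covariate and 5 of 114 with it.

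Members and gene lists were chosen with earlier results of these data known. Among genes with a group mean of at least 6 in 1 of the 4 groups, named genes were those with the largest changes: 10 risen and 10 fallen of BT20 only, 8 each of MCF only, both lines and opposite. For both lines and opposite, the smaller change of the 2 lines set the order. Named too were up to 4 members of each list with the smallest p for the difference, and 15 genes of EGFR signalling, apoptosis and estrogen response in all cases. ATF4, PSAT1, HERPUD1, MCM5, MCM6, TRIB2, TYMS, IFIT1, ISG15, USP18 and the marker genes were named in addition, after their values were seen. Promoters are from RefSeq on GRCh38.p14. Alternatives covered the filter, probe sets, normalization, fit, threshold and each array left out.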

Additional observations from a re-analysis of the deposited data

Results flagged for a closer look

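The 24 h change differed between BT20 and MCF for 1099 genes by the test of the difference itself.

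Among the 4 BT20 arrays at 0 min, 1 array lay far from the other 3 for 20 of 152 named genes (13.2%), and this was replicate 4 for 17 of them. Over all 12208 genes tested the same held for 1545 (12.7%), with replicate 4 the array in 1341; chance gives about 1 in 20. Replicate 4 read low for BMF (3.37, nearest other array 3.95), CYP1A1 (3.64, nearest 5.12), FOSL1 (9.81, nearest 11.15), FOXO4 (3.51, nearest 3.67) and GADD45A (11.36, nearest 12). It was low too for HBEGF (6.98, nearest 7.44), NEU1 (8.56, nearest 9.80), NFKBIA (7.29, nearest 8.36), S100A8 (10.72, nearest 11.83) and UQCRC1 (8.49, nearest 9.54). It read high for CDH3 (11.52, nearest 11.09), CDH5 (11.85, nearest 10.91), CENPA (7.23, nearest 6.86) and DDIT4 (8.86, nearest 7.97). The remaining high values were those of EREG (11.95, nearest 11.15), KLF2 (4.94, nearest 4.02) and PECAM1 (4.90, nearest 3.29). The other 3 cases were low values of CHAC1 in replicate 2 (3.71, nearest 4.21), SHH in replicate 1 (3.07, nearest 3.29) and TNFAIP2 in replicate 3 (10.87, nearest 11.14).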

How the results depend on the processing

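With 3 or 4 arrays a group, changes of 1 log2 unit in MCF are mostly out of reach without the covariate, and values below 4 carry no measured fall. The difference was called for 1099 genes. It was called for 1817 with every probe set tested, 1930 in 1 fit to all 25 arrays, 575 at an adjusted p under 0.01, 2285 with the axis covariate, 3921 with the covariate and without BT20 0 min replicate 4, and 463 among genes of mean 6 or more in both lines. Under the same settings, as far as they moved it, the count of 4250 in BT20 became 7272 with every probe set, 2544 at 0.01, 6872 without replicate 4 and 2767 among genes expressed in both lines, and 1722 when a change of 1 unit was also required. BT20 only genes, 1033, became 1729 with every probe set, 1680 in the fit to all 25 arrays, 561 at 0.01, 1942 with the covariate, 3438 with the covariate and without replicate 4, and 443 among genes expressed in both lines. The MCF count of 1 became 402 in the fit to all 25 arrays, 118 with 1 fit to the 13 arrays, 191 with the covariate, 4 with values below 4 set to 4, 3 with repeated quantile normalization and 2 with centred arrays. It was 0 with the mean of the probe sets, every probe set, trended robust moderation or an adjusted p under 0.01. MCF only genes, 0, became 91, 36, 55 (51 without replicate 4), 2 and 1 under the first 5 of those settings. Genes called in both lines, 1, became 207, 67, 108 (122 without replicate 4), 2, 2 and 2 under the first 6, and 0 under the 4 that gave no MCF call. Opposite genes, 0, became 30 in the fit to all 25 arrays, 5 with 1 fit to the 13 arrays, 9 with the covariate and 17 with the covariate and without replicate 4. With the replicate number as a block, which does not pair these samples, 6484 genes were called in BT20, 0 in MCF and 0 in both lines, 1587 in the difference and 1532 as BT20 only. Leaving out 1 array gave 767 (without BT20 24 h replicate 3) to 1863 (without BT20 0 min replicate 4) for the difference and 2857 (without BT20 24 h replicate 1) to 6872 for BT20. It gave 0 to 1 for MCF and for both lines, 730 to 1777 for BT20 only, and 0 for MCF only and opposite genes. The ETV5 difference turned to -1.15 with the mean of its probe sets, which disagree. The median difference of all genes lay between -0.04 and 0.08. The cause of these shifts was not tested, beyond the numbers of genes, arrays and residual degrees of freedom that the settings themselves change.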
